A study of Mus musculus with 4 samples.

Results

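The 34 genes described here mark cells of the myeloid lineage, namely macrophages and monocytes, dendritic cells, neutrophils, eosinophils and mast cells. They were chosen by symbol from a fixed list, with earlier results of these data known, and all 34 were found among the 27179 genes of the deposited table. The samples were LTi cells (lymphoid tissue inducers, which belong to the lymphoid and not to the myeloid lineage) from the lamina propria of the small intestine of C57BL/6 mice, sorted as Lin- CD127+ CCR6+ and negative for NKp46, NK1.1 and KLRG1, and RNA was sequenced. Gata3+/+ mice (Ctrl) gave 2 libraries, and Gata3fl/fl-VavCre mice (Gata3-KO) gave another 2. In the latter Cre is made across blood cells, so that floxed Gata3 can be deleted in LTi cells and in myeloid cells alike. The Ctrl mice are labelled by their wild-type Gata3 alone, and the sources used here state neither whether they carried Cre nor the age or pooling of the mice.

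Macrophages and monocytes take up particles and microbes, carry the CSF1 receptor and, in tissues, make the C1q chains of complement. The phagocyte NADPH oxidase is a membrane enzyme of CYBB and CYBA that is switched on by cytosolic subunits such as NCF1 and NCF4 and makes superoxide. Neutrophils and eosinophils carry their own granule proteins, and mast cells store proteases and carry the IgE receptor. All of these cells live in the lamina propria of the gut. Some of the 34 genes are also made by lymphoid cells: the shared Fc receptor chain FCER1G works with NKp46 in natural killer cells, and B cells also make subunits of the oxidase.

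The read totals inferred from the deposited values were 14294708 and 12670034 for the Ctrl libraries and 24315878 and 23973995 for the Gata3-KO libraries. Levels are in RPKM, which scales a gene's reads to its length and to the library's total, or in CPM, which scales them to the total alone. Genes were compared with limma on log2(RPKM + 1), two-sided, with Benjamini-Hochberg adjustment over all 14282 tested genes, and a gene is said to have risen or fallen where its adjusted p was under 0.05. The labels do not say whether replicates came from separate animals, so p-values measure only the spread between these libraries, which may be technical. Gata3 stood at 84.3 and 50.7 RPKM in Ctrl and at 34.5 and 23.3 RPKM in Gata3-KO libraries, a log2 difference of -1.18 ± 0.36 (SE) that did not pass (adjusted p = 0.0907 in limma). The median tested gene lay 0.43 log2 units higher in Gata3-KO on the scale of the deposited values. It lay 0.04 higher with median-ratio scaling, which divides each library by its median ratio to the average library. In bulk RNA, fewer cells of a type and less RNA per cell cannot be told apart.

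Of the 34 genes, 22 had enough reads to be tested (0.523 CPM or more in at least 2 libraries and 15 or more reads in all), 12 were too low, and 4 of those 12 (Elane, Epx, Fcer1a and Ms4a2) had no read in any library. In limma 4 of the 22 rose in Gata3-KO (Cybb, Ncf1, Prg2 and Clec10a), 18.2% of those tested, against 8.29% of all tested genes (8.98% were called in either direction). Clec10a, without a read in Ctrl, met the filter on reads through its Gata3-KO libraries alone. None fell, against 0.686% of all tested genes, and none was lower at an adjusted p under 0.05 in limma-voom on recovered reads. At an unadjusted p under 0.05 in limma 2 of the 22 were lower (Fcer1g and Batf3). In either direction 7 of the 22 were under that unadjusted p, against 4353 of the 14282 tested genes. After median-ratio scaling 0 of the 22 passed in limma, while 0.581% of all tested genes were called higher and 0.434% lower. At an unadjusted p under 0.05 in limma on that scaling 5 of the 22 were higher and 4 lower. Over all 14282 tested genes 3231 were under that p in either direction. The median log2 difference of the 22 was 0.70 on the deposited scale and 0.25 with median-ratio scaling. Both Gata3-KO libraries lay above both Ctrl libraries in 8 of the 22, against 53.9% of all tested genes, and below both in 3, against 7.55%. The genotypes overlapped in the other 11. With median-ratio scaling the groups lay apart upward in 5, against 29.8% of all tested genes, and downward in 5, against 25.5%.

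**Figure D1:**
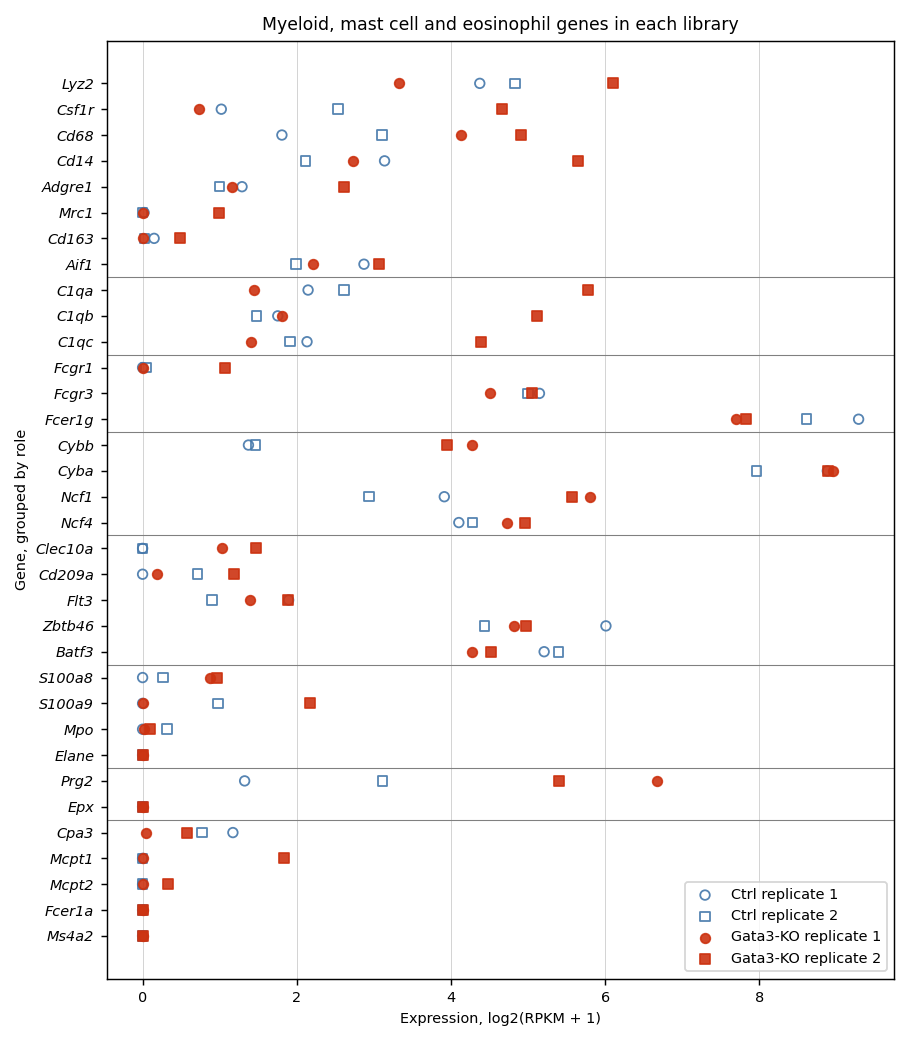
Expression of the 34 genes as log2(RPKM + 1) on the horizontal axis, 1 point per library, with grey lines between groups by role. Cybb, Ncf1, Prg2 and Clec10a lie apart by genotype, while C1qa, C1qb, C1qc, Csf1r and Cd14 are high in Gata3-KO replicate 2 alone.

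The oxidase subunits were present in every library, and 2 of the 4, Cybb and Ncf1, rose in Gata3-KO. Cybb (Entrez 13058, chromosome X: 9435252 to 9487766, GRCm38), which codes for the catalytic subunit gp91phox, stood at 1.59 and 1.76 RPKM in Ctrl and at 18.3 and 14.4 RPKM in Gata3-KO libraries. Both Gata3-KO libraries were high and close to each other, and both Ctrl libraries were low. The means were 1.68 ± 0.121 and 16.4 ± 2.75 RPKM (SD, n = 2 each), a 9.76-fold difference, and the log2 difference was 2.69 ± 0.31 (SE, adjusted p = 0.0159 in limma). Ncf1 (Entrez 17969, chromosome 5: 134220053 to 134229628) codes for the organiser subunit p47phox. It stood at 14.1 and 6.67 RPKM in Ctrl and at 54.9 and 46.3 RPKM in Gata3-KO libraries. The groups did not overlap, and the means of 10.4 ± 5.23 and 50.6 ± 6.06 RPKM (SD, n = 2 each) gave a log2 difference of 2.26 ± 0.38 (SE, adjusted p = 0.0280 in limma).

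Cyba and Ncf4 did not pass. Cyba, the membrane partner p22phox of CYBB, was among the highest of the 34 genes in every library, with 470 and 249 RPKM in Ctrl and 494 and 473 RPKM in Gata3-KO libraries. Its log2 difference was 0.50 on the deposited scale but -0.10 with median-ratio scaling. Cyba transcripts thus stood far above Cybb transcripts per length in Ctrl, at a mean of 360 against 1.68 RPKM, and in Gata3-KO at 483 against 16.4 RPKM. Ncf4, the regulatory subunit p40phox, lay at 16.2 and 18.4 RPKM in Ctrl and at 25.5 and 30.0 RPKM in Gata3-KO libraries (log2 difference 0.65, adjusted p = 0.164 in limma). After median-ratio scaling Cybb lay at 2.22 (adjusted p = 0.0545 in limma), Ncf1 at 1.70 (adjusted p = 0.0868 in limma) and Ncf4 at 0.08. Of the 18 B and plasma cell markers 16 rose as well. With median-ratio scaling 1 of the 18, Ighm, passed in limma, and 16 were higher at an unadjusted p under 0.05. The median log2 difference of the 18 was 2.83 on that scaling, against 0.04 for all tested genes. The summed level of these markers was 534 and 712 RPKM in Ctrl and 4653 and 2881 RPKM in Gata3-KO libraries. The part of these markers in the rise of Cybb and Ncf1 was not tested.

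The promoters of Cybb and Ncf1 are shown because these subunits of a single enzyme rose together, and those of C1qb and C1qc because these neighbouring genes were high together in 1 library. Each is the 250 bases before the start given in RefSeq's promoter windows (GRCm38.p6), 5′ to 3′ on the gene's strand. That start is a single one per gene and can lie inside the outer limits of the gene, so that the Cybb window lies within the interval given above and those of C1qc and Ncf1 overlap the edges of those genes, and promoters of 26 of the 34 genes were matched by symbol. Capitals mark matches to GAGGAA, the purine-rich PU box that the myeloid factor PU.1 can bind, and to AGATAA, a core site of GATA factors, each searched on both strands. The letters of the motifs do not overlap in these windows.
Cybb, chrX:9469325-9469574, minus strand: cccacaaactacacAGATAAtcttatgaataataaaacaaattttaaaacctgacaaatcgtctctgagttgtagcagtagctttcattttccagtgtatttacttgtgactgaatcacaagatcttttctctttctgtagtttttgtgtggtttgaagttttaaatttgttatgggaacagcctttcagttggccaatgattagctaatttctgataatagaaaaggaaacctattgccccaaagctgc
Ncf1, chr5:134229626-134229875, minus strand: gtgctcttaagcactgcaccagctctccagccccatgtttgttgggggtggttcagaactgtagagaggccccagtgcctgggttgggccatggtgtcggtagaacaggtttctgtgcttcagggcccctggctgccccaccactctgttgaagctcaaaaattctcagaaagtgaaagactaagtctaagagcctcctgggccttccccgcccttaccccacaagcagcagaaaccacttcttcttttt
C1qb, chr4:136886201-136886450, minus strand: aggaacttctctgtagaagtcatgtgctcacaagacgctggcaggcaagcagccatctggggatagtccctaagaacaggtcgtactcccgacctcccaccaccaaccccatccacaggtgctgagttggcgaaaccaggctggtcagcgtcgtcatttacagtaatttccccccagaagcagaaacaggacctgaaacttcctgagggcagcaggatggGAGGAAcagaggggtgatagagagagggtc
C1qc, chr4:136892915-136893164, minus strand: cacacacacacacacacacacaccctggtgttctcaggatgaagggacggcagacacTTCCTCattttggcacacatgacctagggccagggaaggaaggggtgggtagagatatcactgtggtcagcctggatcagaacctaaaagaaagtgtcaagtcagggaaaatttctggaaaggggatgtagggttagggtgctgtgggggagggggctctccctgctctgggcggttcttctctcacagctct
The GATA letters occurred in the promoter of Cybb, and the PU box letters in those of C1qb and C1qc. GAGGAA was found in 12 of the 26 matched promoters (46.2%), against 23.3% of the 32851 RefSeq promoter windows of the same length, and AGATAA in 6 of the 26 (23.1%), against 9.99%. The RefSeq windows were not limited to genes tested here, so the shares are over unlike sets. Prg2, Clec10a, C1qa, Csf1r and Cd14 were among the listed genes without a matched promoter. These are counts of exact letters in a window and not of bound sites. Other forms of either site were not searched, so a window without a match can still hold one.

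Prg2, which codes for the major basic protein of eosinophil granules, had the largest log2 difference of the 22 tested genes, while the other eosinophil gene, Epx, had no read. Prg2 (Entrez 19074, chromosome 2: 84980461 to 84983632) stood at 1.50 and 7.63 RPKM in Ctrl and at 101 and 41.2 RPKM in Gata3-KO libraries. The groups did not overlap, although both groups were spread widely. The means of 4.57 ± 4.33 and 70.9 ± 42.1 RPKM (SD, n = 2 each) differed 15.5-fold, with a log2 difference of 3.82 ± 0.72 (SE, adjusted p = 0.0400 in limma). After median-ratio scaling it was 3.29 (adjusted p = 0.106 in limma), and without Ctrl replicate 1 and without Ctrl replicate 2 it was 2.92 and 4.71. Epx, the eosinophil peroxidase on chromosome 11, had 0 reads in all 4 libraries, which allows up to 0.210 and 0.237 CPM in Ctrl and 0.123 and 0.125 CPM in Gata3-KO libraries (3 reads of each total, counting error only). Of 19 further eosinophil and basophil genes 8 were tested and 1, Csf2rb2, rose. Csf2rb2, a receptor chain for IL-3, was at 0.0151 and 0.0342 RPKM in Ctrl and at 2.89 and 2.16 RPKM in Gata3-KO libraries. Il5ra, a chain of the IL-5 receptor, had 0 and 2 reads in Ctrl and 22 and 62 in Gata3-KO libraries (adjusted p = 0.177 in limma). Csf2rb, the chain shared by the receptors for IL-3, IL-5 and GM-CSF, was at 0.852 and 1.47 RPKM in Ctrl and at 3.58 and 14.8 RPKM in Gata3-KO libraries (adjusted p = 0.0952 in limma). Siglecf, a surface lectin of eosinophils, had 2 and 11 reads in Ctrl and 3 and 38 in Gata3-KO libraries, which overlapped. Ear1 and Ear6, ribonucleases of eosinophils, had 0 reads in every library, and Ccr3, the eotaxin receptor, had 2 and 1 reads in Ctrl and 3 and 2 in Gata3-KO libraries. Prg3, the close relative of Prg2, had 0 and 0 reads in Ctrl and 14 and 0 in Gata3-KO libraries. Apart from Csf2rb2, these genes were picked from the list after their values were seen. The summed B and plasma cell markers, given above, were also higher in both Gata3-KO libraries, and their part in the level of Prg2 was not tested.

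Among the 5 dendritic cell genes, Clec10a rose and the transcription factor genes lay level or lower. Clec10a (chromosome 11: 70166623 to 70170836) codes for a lectin that binds galactose-type sugars on dendritic cells and macrophages. It had 0 and 0 reads in Ctrl and 38 and 64 reads in Gata3-KO libraries, or 1.04 and 1.78 RPKM. Both Gata3-KO libraries were thus low but above Ctrl, and the level was at least 19.0-fold higher against a floor of 3 reads over the Ctrl group. It passed on the deposited scale (adjusted p = 0.0409 in limma) and not after median-ratio scaling (adjusted p = 0.0828 in limma). Clec10a was tested only because of its reads in the Gata3-KO libraries, so its call is a description of them. Its relative Mgl2, with which reads can be shared, had 0 and 5 reads in Ctrl and 1 and 33 in Gata3-KO libraries.

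Batf3, a transcription factor needed for cross-presenting dendritic cells, was well above 0 in all libraries. It stood at 36.0 and 41.1 RPKM in Ctrl and at 18.3 and 21.97 RPKM in Gata3-KO libraries. Both Gata3-KO libraries lay below both Ctrl libraries, yet the log2 difference of -0.91 ± 0.27 (SE) did not pass (adjusted p = 0.0843 in limma). After median-ratio scaling it was -1.48 (adjusted p = 0.0633 in limma). Zbtb46, a transcription factor of classical dendritic cells, was at 63.4 and 20.6 RPKM in Ctrl and at 27.1 and 30.5 RPKM in Gata3-KO libraries. The Gata3-KO libraries lay between the Ctrl libraries on the deposited scale, and the log2 difference of -0.33 turned to 0.46 without Ctrl replicate 1. With median-ratio scaling both Gata3-KO libraries lay below both Ctrl libraries for Zbtb46. The log2 difference was then -0.90 (adjusted p = 0.344 in limma), and -0.19 without Ctrl replicate 1. Flt3, the receptor for the growth factor FLT3L, ranged from 0.863 to 2.72 RPKM and Cd209a, a relative of DC-SIGN, from 0 to 1.27 RPKM over the 4 libraries, and the genotypes overlapped for both.

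Among the macrophage genes, the C1q chains, Csf1r and Cd14 were high in Gata3-KO replicate 2 alone, and none of the listed macrophage genes passed. The 3 C1q genes lie next to one another on chromosome 4, between 136880126 and 136898844 (GRCm38), and code for the 3 chains of the complement recognition protein. C1qa stood at 3.43 and 5.11 RPKM in Ctrl and at 1.71 and 53.8 RPKM in Gata3-KO libraries. C1qb stood at 2.37 and 1.78 RPKM in Ctrl and at 2.52 and 33.8 RPKM in Gata3-KO libraries. C1qc stood at 3.39 and 2.77 RPKM in Ctrl and at 1.64 and 19.9 RPKM in Gata3-KO libraries. Gata3-KO replicate 2 was high for all 3 chains and Gata3-KO replicate 1 was at or near the Ctrl level or below it. The ratio of Gata3-KO replicate 2 to replicate 1 was 31.5 for C1qa, 13.4 for C1qb and 12.1 for C1qc.

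Csf1r and Cd14 were likewise highest in Gata3-KO replicate 2. Csf1r, the receptor for CSF1 and IL-34, was at 1.03 and 4.79 RPKM in Ctrl and at 0.658 and 24.4 RPKM in Gata3-KO libraries. Cd14, the co-receptor for bacterial lipopolysaccharide, was at 7.80 and 3.32 RPKM in Ctrl and at 5.66 and 49.3 RPKM in Gata3-KO libraries. These and the C1q chains make 5 of the 22 tested genes (22.7%) that lay in Gata3-KO replicate 2 at 4 times or more the level of each other library, against 1.06% of all tested genes. The 22 were tested partly because of their reads in that library, so this is a description of it. That library was the highest of the 4 in 12 of the 22, against 44.8% of all tested genes.

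Cd68 was the macrophage gene that lay high in both Gata3-KO libraries. This glycoprotein of lysosomes and endosomes was at 2.50 and 7.60 RPKM in Ctrl and at 16.6 and 29.0 RPKM in Gata3-KO libraries. The groups did not overlap, and the log2 difference of 2.07 ± 0.51 (SE) did not pass (adjusted p = 0.0579 in limma). Adgre1, which codes for a surface receptor used to mark tissue macrophages, was at 1.44 and 0.997 RPKM in Ctrl and at 1.24 and 5.13 RPKM in Gata3-KO libraries. Aif1, the actin-binding protein IBA1, ranged from 2.98 to 7.39 RPKM over the 4 libraries with the genotypes mixed. Mrc1, the mannose receptor, had 1 and 0 reads in Ctrl and 1 and 126 in Gata3-KO libraries, and Cd163, the scavenger receptor for haemoglobin, had 7 and 1 reads in Ctrl and 0 and 43 in Gata3-KO libraries. Both were thus seen mainly in Gata3-KO replicate 2.

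Lyz2 is uncertain. It codes for the lysozyme of macrophages and granulocytes and was at 19.7 and 27.5 RPKM in Ctrl and at 8.99 and 67.4 RPKM in Gata3-KO libraries, lowest in Gata3-KO replicate 1 and highest in Gata3-KO replicate 2. Its near-identical copy Lyz1, the lysozyme of Paneth cells in the crypts, was at 747 and 1140 RPKM in Ctrl and at 468 and 1378 RPKM in Gata3-KO libraries, so a small share of misplaced Lyz1 reads would weigh on Lyz2. Both genes had the same order of the 4 libraries.

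**Figure D2:**
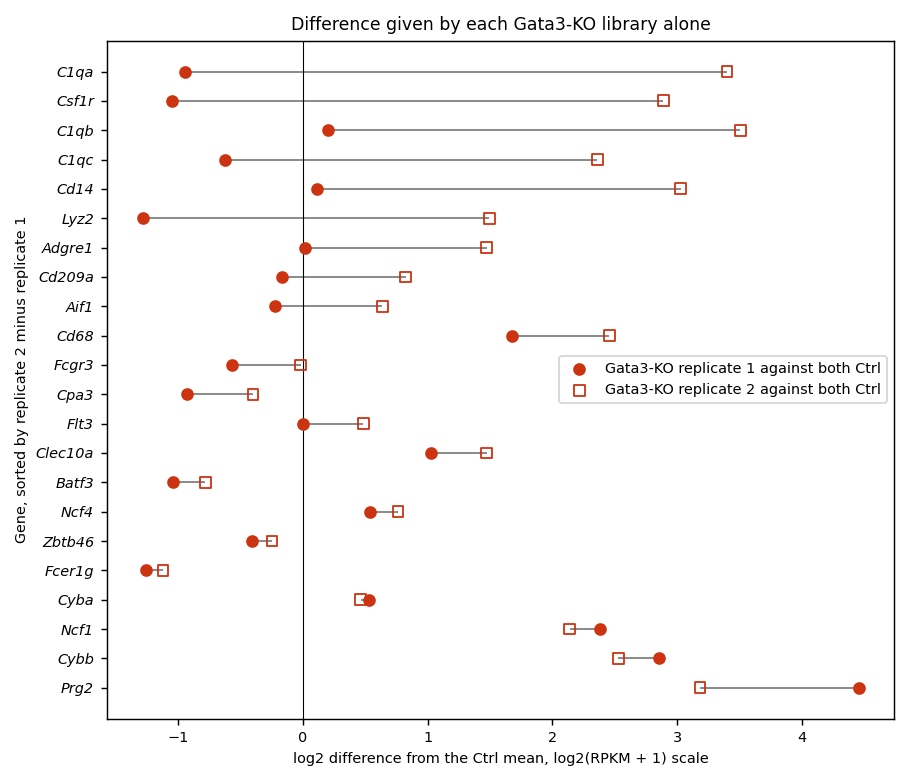
Log2 difference of each Gata3-KO library alone from the mean of both Ctrl libraries, for the 22 tested genes sorted by replicate 2 minus replicate 1; filled circles are Gata3-KO replicate 1 and open squares Gata3-KO replicate 2. C1qa lies at -0.94 and 3.40 and Csf1r at -1.05 and 2.89, whereas Cybb lies at 2.85 and 2.53.

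Leaving out 1 Gata3-KO library therefore changed the sign of several macrophage genes. Without Gata3-KO replicate 2 the log2 difference was -0.94 for C1qa, 0.20 for C1qb, -0.62 for C1qc, -1.05 for Csf1r, 0.11 for Cd14 and -1.28 for Lyz2. Without Gata3-KO replicate 1 the same genes lay at 3.40, 3.51, 2.36, 2.89, 3.03 and 1.49. With all libraries they lay at 1.23, 1.85, 0.87, 0.92, 1.57 and 0.11, and none passed in limma or was under an unadjusted p of 0.05. The log2 differences of Cybb, Ncf1, Prg2 and Clec10a were positive without either library, at 2.53 to 2.85, 2.14 to 2.38, 3.18 to 4.45 and 1.03 to 1.47. With 1 library left in a genotype, the spread comes from the other genotype alone, so only effect sizes are read here from those fits. Over all tested genes the median log2 difference was 0.48 without Gata3-KO replicate 1 and 0.39 without Gata3-KO replicate 2.

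The Fc receptor genes differed widely in level. Fcer1g, the signalling chain shared by activating Fc receptors, was the highest of the 34 genes in Ctrl, at 623 and 390 RPKM, and lay at 206 and 226 RPKM in Gata3-KO libraries. Both Gata3-KO libraries lay below both Ctrl libraries, with means of 507 ± 165 and 216 ± 14.4 RPKM (SD, n = 2 each), a 2.34-fold difference. The log2 difference of -1.19 ± 0.34 (SE) did not pass (adjusted p = 0.0783 in limma), nor did the -1.78 after median-ratio scaling (adjusted p = 0.0573 in limma). Fcgr3, the low-affinity activating receptor for IgG, was at 34.4 and 31.0 RPKM in Ctrl and at 21.7 and 32.3 RPKM in Gata3-KO libraries, which overlapped. After median-ratio scaling both Gata3-KO libraries lay below both Ctrl libraries for Fcgr3, with a log2 difference of -0.87 (adjusted p = 0.131 in limma). Fcgr3 resembles its neighbour Fcgr2b in sequence, so reads of the pair can be misplaced. Fcgr1, the high-affinity IgG receptor of macrophages, had 0 and 1 reads in Ctrl and 0 and 68 in Gata3-KO libraries, again nearly all in Gata3-KO replicate 2.

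Neutrophil genes were at or near 0, and none of the 4 passed the filter on reads. S100a8 and S100a9, neighbours on chromosome 3 that code for the 2 chains of calprotectin, had few reads. S100a8 had 0 and 1 reads in Ctrl and 8 and 9 in Gata3-KO libraries. S100a9 had 0 and 6 reads in Ctrl and 0 and 41 in Gata3-KO libraries. Mpo, the myeloperoxidase of neutrophil granules, had 0 and 8 reads in Ctrl and 1 and 4 in Gata3-KO libraries, and Elane, the neutrophil elastase, had 0 in all 4. S100a8 was thus higher in both Gata3-KO libraries. All 4 lay below the filter, and in the fit without a filter the adjusted p in limma was 0.152 for S100a8, 0.698 for S100a9 and 0.660 for Mpo.

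Mast cell genes were low as well, and the IgE receptor was not detected. Fcer1a and Ms4a2, which code for the chains that with FCER1G make up the mast cell receptor for IgE, had 0 reads in all 4 libraries. Cpa3, the carboxypeptidase of mast cell granules, was at 1.25 and 0.706 RPKM in Ctrl (26 and 13 reads) and at 0.0283 and 0.488 RPKM in Gata3-KO libraries (1 and 17 reads). Both Gata3-KO libraries lay below both Ctrl libraries, with a log2 difference of -0.66 ± 0.30 (SE) that did not pass (adjusted p = 0.192 in limma). Mcpt1 and Mcpt2, neighbouring chymase genes of mucosal mast cells on chromosome 14 that are similar enough to share reads, had 63 and 6 reads in Gata3-KO replicate 2 and 0 in each other library.

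**Figure D3:**
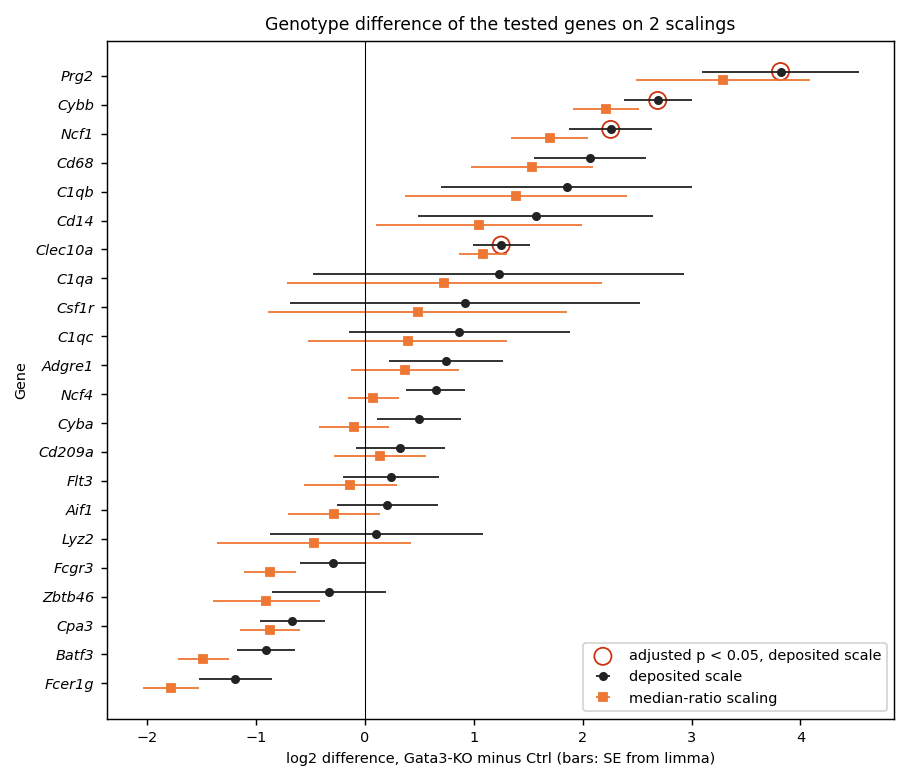
Log2 difference of Gata3-KO minus Ctrl on the log2(RPKM + 1) scale for the 22 tested genes, with the SE from limma, on the deposited scale (black circles) and after median-ratio scaling (orange squares); red rings mark adjusted p under 0.05. Prg2, Cybb, Ncf1 and Clec10a carry rings on the deposited scale only, and Cyba, Flt3, Aif1 and Lyz2 lie on opposite sides of 0 on the 2 scalings.

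Genes outside the 34 were read from lists of 148 genes (the wider genes), of which 98 were tested. The lists cover the same cell types, but also NADPH oxidases and Fc receptors with their signalling genes, and these include genes of epithelial, B and T cells. They were made with earlier results of these data known, so their share of calls is a description. On the deposited scale 25 of the 98 rose (25.5%, against 8.29% of all tested genes) and Lilrb4a fell. The oxidase list gave 4 of the 25 and the Fc receptor list 6. Some of the 25, such as Csf2rb2 and Slc6a4, met the filter on reads through their Gata3-KO libraries alone. The median log2 difference of the 98 was 0.82, against 0.43 for all tested genes. After median-ratio scaling the median was 0.48, against 0.04, and Fscn1 (higher) and Lilrb4a (lower) were the only ones of the 98 to pass in limma. Of 26 tested macrophage and monocyte genes 6 rose. Ly6c2, an antigen of inflammatory monocytes, stood at 0.786 and 2.27 RPKM in Ctrl and at 36.5 and 19.7 RPKM in Gata3-KO libraries. Cd86, the co-stimulatory ligand, rose from 1.71 and 1.90 to 12.8 and 23.1 RPKM, and the lysosomal protease genes Lgmn and Ctsb rose by 2.57 and 1.46 log2 units. Sirpa, which codes for the receptor of the signal CD47, rose by 1.68 log2 units. The 6th was Spi1, named after its values were seen, which codes for PU.1 and stood at 5.56 and 4.32 RPKM in Ctrl and at 13.7 and 21.2 RPKM in Gata3-KO libraries (log2 1.61, adjusted p = 0.0407 in limma). Msr1, Cx3cr1 and Apoe stood in Gata3-KO replicate 2 at 4 times or more the level of each other library, as the C1q chains did. Apoe, a lipid carrier made by macrophages and named after its values were seen, was at 98.1 and 101 RPKM in Ctrl and at 168 and 708 RPKM in Gata3-KO libraries.

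Of 20 tested dendritic cell genes outside the 34, 5 rose. Both Gata3-KO libraries lay above both Ctrl libraries in 9 of the 20, against 53.9% of all tested genes. They lay below both in 3, against 7.55%. These 3, named after their values were seen, were Xcr1, Itgae and Relb, with log2 differences of -0.98, -0.91 and -0.28 that did not pass in limma. All 24 genes of the list summed to 2098 and 710 RPKM in Ctrl and to 1147 and 1270 RPKM in Gata3-KO libraries, which overlapped. Fscn1, which codes for the actin bundler fascin of mature dendritic cells, rose from 0.971 and 0.473 to 22.1 and 20.6 RPKM (log2 3.71 ± 0.32 SE, adjusted p = 0.00889 in limma). Irf4, a transcription factor of dendritic, B and plasma cells, rose from 0.538 and 1.80 to 24.6 and 14.0 RPKM. Cd24a, Dpp4 and Wdfy4 rose by 2.22, 2.15 and 1.39 log2 units. The other lists were smaller. None of 6 tested neutrophil genes was called in limma or in limma-voom on recovered reads, and 0 of the 6 had an unadjusted p under 0.05 in limma. Tpsg1, Cd63 and Slc6a4 rose among 9 tested mast cell genes, while the mast cell protease genes Cma1, Tpsab1 and Tpsb2, named after their values were seen, had 0 reads in every library.

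Among 11 tested oxidase genes outside the 34, the 4 that rose belong to oxidases known mainly from epithelium. Noxo1 and Noxa1, the organiser and activator of the NOX1 enzyme, stood at 2.34 and 1.69 and at 2.13 and 1.60 RPKM in Ctrl, and at 13.0 and 17.9 and at 8.95 and 12.3 RPKM in Gata3-KO libraries. Duox2 and its maturation factor Duoxa2 rose by 1.33 and 2.80 log2 units. Of 16 epithelial markers 12 rose (5 with median-ratio scaling), with summed levels of 777 and 460 RPKM in Ctrl and 3797 and 5003 RPKM in Gata3-KO libraries, and their part in the rise of the epithelial oxidase genes was not tested.

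All 19 Fc receptor and signalling genes outside the 34 were tested, and 6 rose and Lilrb4a fell. Lilrb4a, an inhibitory receptor, went from 46.3 and 56.7 RPKM in Ctrl to 16.5 and 17.2 RPKM in Gata3-KO libraries (log2 -1.55 ± 0.26 SE, adjusted p = 0.0285 in limma). The kinase gene Syk rose from 0.783 and 2.05 to 10.6 and 19.6 RPKM. Fcer2a, the low-affinity IgE receptor of B cells, rose by 3.81, Cd247, the zeta chain that signals for T cell receptors, by 2.60, and Pigr, which carries IgA across epithelium, by 2.37 log2 units. Fcer2a also stands among the B and plasma cell markers and Cd247 among the T cell markers.

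**Figure D4:**
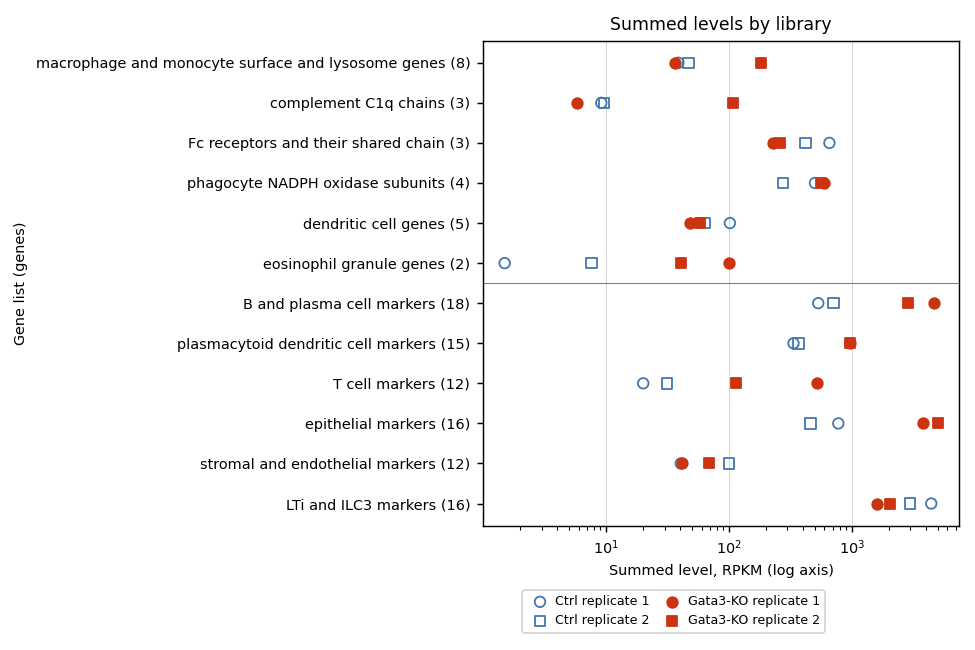
Summed RPKM of gene lists on a log axis, 1 point per library, with the myeloid groups above the grey line and markers of other cells below it; the neutrophil and mast cell groups are left out because of values at or near 0. The C1q chains sum to 107 RPKM in Gata3-KO replicate 2 and to 5.87 to 9.66 RPKM in the other libraries.

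Markers of other cells also differed between genotypes, in numbers that depended on the scaling. The 15 markers of plasmacytoid dendritic cells summed to 336 and 369 RPKM in Ctrl and to 970 and 975 RPKM in Gata3-KO libraries, and 6 of them rose (3 with median-ratio scaling), with the receptor gene Siglech and Cox6a2 among them. The 12 T cell markers, of which 4 of 11 tested rose, summed to 20.1 and 31.5 RPKM in Ctrl and to 523 and 113 RPKM in Gata3-KO libraries. With median-ratio scaling 0 of the 11 passed in limma or limma-voom, with 5 higher at an unadjusted p under 0.05 in limma. Their sum was highest in Gata3-KO replicate 1, whereas the 8 macrophage surface and lysosome genes summed to 36.7 RPKM there and to 184 RPKM in Gata3-KO replicate 2, against 38.9 and 47.2 RPKM in Ctrl. The 16 LTi and ILC3 markers were all present in every library and summed to 4428 and 2988 RPKM in Ctrl and to 1613 and 2030 RPKM in Gata3-KO libraries. Il22, which fell, made up much of the Ctrl sums, at 2401 and 1520 RPKM, and was at 129 and 287 RPKM in Gata3-KO libraries. The median log2 difference of the 16 was -0.07 on the deposited scale, against 0.43 for all tested genes. With median-ratio scaling it was -0.63, against 0.04. The 12 stromal and endothelial markers, none of which was called in limma or limma-voom (0 of 10 tested at an unadjusted p under 0.05), summed to 40.6 and 100.01 RPKM in Ctrl and to 41.3 and 68.7 RPKM in Gata3-KO libraries. Whether other cells in the sorted samples bear on the levels of the myeloid genes was not tested.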

How the data were processed

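The 34 genes and the gene lists were chosen with earlier results of these data known. Libraries of sorted cells were made with Smart-seq2, without molecular identifiers, per the labels' protocols, and Subread, featureCounts and mm10 are named in the submitters' processing notes. The sources used here state neither tool versions nor how multi-mapped reads were treated. Judged from its values, the authors' deposited table holds log2(RPKM + 1), to which they added 0.0001, with each library scaled to its own total. Symbols and coordinates came from RefSeq (GRCm38.p6), matched by Entrez identifier for 25275 of 27179 genes.

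Whole reads were recovered from the steps between low values, and the library totals were inferred from the ratios of such values between libraries. Read numbers came out whole within 0.001 reads for 100% of genes with reads and summed to 100.3% to 100.5% of the library totals. A gene's length was known only up to a whole factor, chosen by the annotated exon length, so single read numbers can be off by that factor. For 24 of the 30 listed genes with reads the length was within 10% of the annotation. Fcgr3 was the farthest, at 0.335 of it. The recovery and the test were both tested on simulated data.

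A gene was tested where 2 or more libraries reached 0.523 CPM and all libraries together 15 reads. On log2(RPKM + 1), limma 3.58.1 (R 4.3.3) was fitted with its trend and robust options, a scale that understates changes of low genes, and the threshold was 0.05. Floors are 3 reads of a library's total and cover counting error only. The text names all 34 genes, Gata3 and, from each other list, the 5 called genes of lowest adjusted p or fewer, with exceptions stated. The alternatives were other scalings, filters, a pseudocount of 0.1, limma-voom on the recovered reads, a replicate block and leaving out each library. Tables and plots were made in Python 3.11.15 with numpy 2.4.6, pandas 2.3.3 and matplotlib 3.10.9.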

Additional observations from a re-analysis of the deposited data

How the results depend on the processing

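The count of 4 listed genes called higher became 0 with median-ratio, 0 with TMM and 1 (Cybb) with upper-quartile scaling, 0 without a filter and 2 (Cybb and Ncf1) with limma-voom on recovered reads. It was 3 with a pseudocount of 0.1 and 4 with a filter of 5 CPM. No listed gene was called lower under any setting run, with 0 to 5 at an unadjusted p under 0.05. The combination of limma-voom with median-ratio scaling was chosen after seeing the data and gave 0 listed genes, 95 of all genes and 1 of the wider genes. All genes called went from 1282 (1184 higher, 98 lower) to 145 (83, 62) with median-ratio, 161 with TMM and 183 with upper-quartile scaling, 0 without a filter (4336 at an unadjusted p under 0.05), 852 with a pseudocount of 0.1 and 305 with limma-voom. The 26 wider genes called became 2, 3 and 3 with those scalings in that order, 0 without a filter and 11 with limma-voom. With any 1 library left out, the calls in limma were 0 to 0 for the listed genes, the wider genes and all genes, with 2404 to 3818 of all genes at an unadjusted p under 0.05. Median-ratio scaling with 1 library left out gave 0 to 0 listed and 0 to 2 wider genes, and 8 of all genes without Ctrl replicate 1, 85 without Ctrl replicate 2 and 0 without either Gata3-KO library. The cause of these changes was not tested.

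The replicate block, with the replicate number as a term, gave 4 listed, 22 wider and 1017 of all genes, with Prg2 no longer passing (adjusted p = 0.0876 in limma) and Cd68 now passing (adjusted p = 0.0284). Cd68 also passed with the filter of 5 CPM (adjusted p = 0.0368). The labels tie the numbers to nothing shared, and the deviations of Ctrl replicate 1 and Gata3-KO replicate 1 correlated at -0.02 over tested genes.

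Cybb, Ncf1, Prg2 and Clec10a stayed positive under each setting that tested them. The sign of 4 uncalled genes turned with scaling: with median-ratio, TMM and upper-quartile scaling and limma-voom with median-ratio scaling, Lyz2 lay at -0.47, -0.45, -0.43 and -0.46, Aif1 at -0.28, -0.27, -0.25 and -0.38, Cyba at -0.099, -0.084, -0.064 and -0.11, and Flt3 at -0.13, -0.12, -0.11 and -0.21. On the deposited scale, genes that turned sign without 1 library ranged from -1.28 to 1.49 for Lyz2, -1.05 to 2.89 for Csf1r, -0.23 to 0.65 for Aif1, -0.94 to 3.40 for C1qa, -0.62 to 2.36 for C1qc, -0.17 to 0.82 for Cd209a, -0.26 to 0.74 for Flt3 and -1.12 to 0.46 for Zbtb46. With median-ratio scaling the genes that turned were without Ctrl replicate 1 Lyz2 at -0.77, Csf1r at -0.37, Ncf4 at -0.088 and Cd209a at -0.30; without Ctrl replicate 2 Lyz2 at -0.16, Aif1 at -0.67, Cyba at -0.48 and Flt3 at -0.62; without Gata3-KO replicate 2 Lyz2 at -1.78, Csf1r at -1.35, Cd14 at -0.33, Adgre1 at -0.27, Aif1 at -0.64, C1qa at -1.33, C1qb at -0.17, C1qc at -0.99, Cd209a at -0.28 and Flt3 at -0.31; without Gata3-KO replicate 1 Cyba at -0.20. Depth limits the 12 untested genes, for which a floor of 3 reads stood at 0.123 to 0.237 CPM.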
